A study of Mus musculus with 8 samples.

Results

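The endothelial, mural and meningeal genes are 38 genes that mark the walls of blood vessels and the connective tissue around the brain. They were chosen by name: 22 genes of endothelium, 9 of mural cells, 2 chains of the collagen IV of vessel basement membranes, and 5 of fibroblasts and meninges. All 38 were among 21368 genes named by a RefSeq accession on the arrays, and all 38 were among the 16618 genes bright enough to be tested. The probe was well above background on all 8 arrays for 36 of them. The exceptions were Myh11, on 3 arrays of treated and 4 of untreated mice, and Erg, on 0 arrays of treated and 4 of untreated mice.

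Endothelial cells line every vessel, and those of the brain are joined by tight junctions and carry transporters that bring in nutrients and pump out drugs. This is the blood-brain barrier. Mural cells lie on the outer face of the endothelium, as pericytes on capillaries and as smooth muscle on arteries, and the 2 layers share a basement membrane rich in collagen IV. Fibroblasts follow the larger vessels and fill the meninges and the stroma of the choroid plexus, where they make fibrillar collagens. Endothelium receives vascular endothelial growth factor A and angiopoietins from its surroundings, and it sends platelet-derived growth factor B to pericytes, which need it to stay on the vessel. Hydroxyurea inhibits ribonucleotide reductase, the enzyme that supplies deoxynucleotides for DNA synthesis, and is a medicine for sickle cell disease.

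RNA from the hippocampus of 8 female mice was measured on 1-colour Agilent arrays, with 1 array per mouse. The 4 Hydroxyurea mice drank water with the drug for 10 weeks, at a dose of 45 mg/kg/day. Their ages were 24 weeks for Hydroxyurea 1 and 2 and 19 weeks for Hydroxyurea 3 and 4, while the 4 untreated Control mice were all 19 weeks old. All 8 mice, treated and untreated, were littermates without the transgenes from the APPswe/PSEN1dE9 line on a C57BL/6J background. With no Control mouse of 24 weeks, age cannot be modelled in untreated mice. Each array came from 1 mouse, so p-values rest on the spread between mice.

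Values are scaled log2 signals, the log2 intensity of a probe minus the 75th percentile of its array. They compare mice for 1 gene and do not rank genes, because probes bind differently. That percentile was an intensity of 1052 to 2162 on Hydroxyurea arrays and 1677 to 2417 on Control arrays, and 59.6% to 69% of probes on Hydroxyurea arrays and 62.1% to 76.7% on Control arrays were well above background. Control 1 had the lowest limma array weight (0.27), against 0.59 to 2.61 for the other 7 arrays, and Hydroxyurea 2 was the dimmest. Treated and untreated arrays lay in different rows of 1 slide, so slide row and treatment cannot be told apart. All 10 hippocampal neuron markers passed the brightness filter. In bulk tissue, fewer cells of a type and less RNA per cell cannot be told apart. Every value called a fold change is a log2 fold change, Hydroxyurea over Control, followed by its SE where ± is given.

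Between treated and untreated hippocampus, none of the 38 genes reached a Benjamini-Hochberg adjusted p under 0.05. The limma test called 0 of 38 members and 0% of all 16618 genes, and adjusted p values ran from 0.476 to 0.998 in the 37 members above background in both groups. Erg passed the brightness filter through the Control arrays alone, so it is left out where 37 members are named. Results over 38 members or 22 endothelial genes include it. At an unadjusted p under 0.05, 0 of the 37 members were higher and 2, Flt1 and Myh11, were lower, where the shares over all genes tested were 3.53% higher and 6.36% lower. The 4 treated and 4 untreated values did not overlap for 0 members on the higher side and for Flt1 on the lower side, where all genes tested gave 2.38% and 5.11%. The log2 fold changes of the 37 members had a median of 0.02 and ran from -0.41 (Myh11) to 0.28 (Kdr), with 19 positive and 18 negative. The 95% interval excluded a 1.5-fold difference in either direction for 20 of the 38 members (52.6%), compared with 77.7% of all genes tested. The median within-group SD of the 38 members was 0.22 on the log2 scale, against 0.15 over all genes tested. It ran from 0.06 for Tek to 0.63 for Dcn, so single members lay on both sides of the median over all genes.

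**Figure D1:**
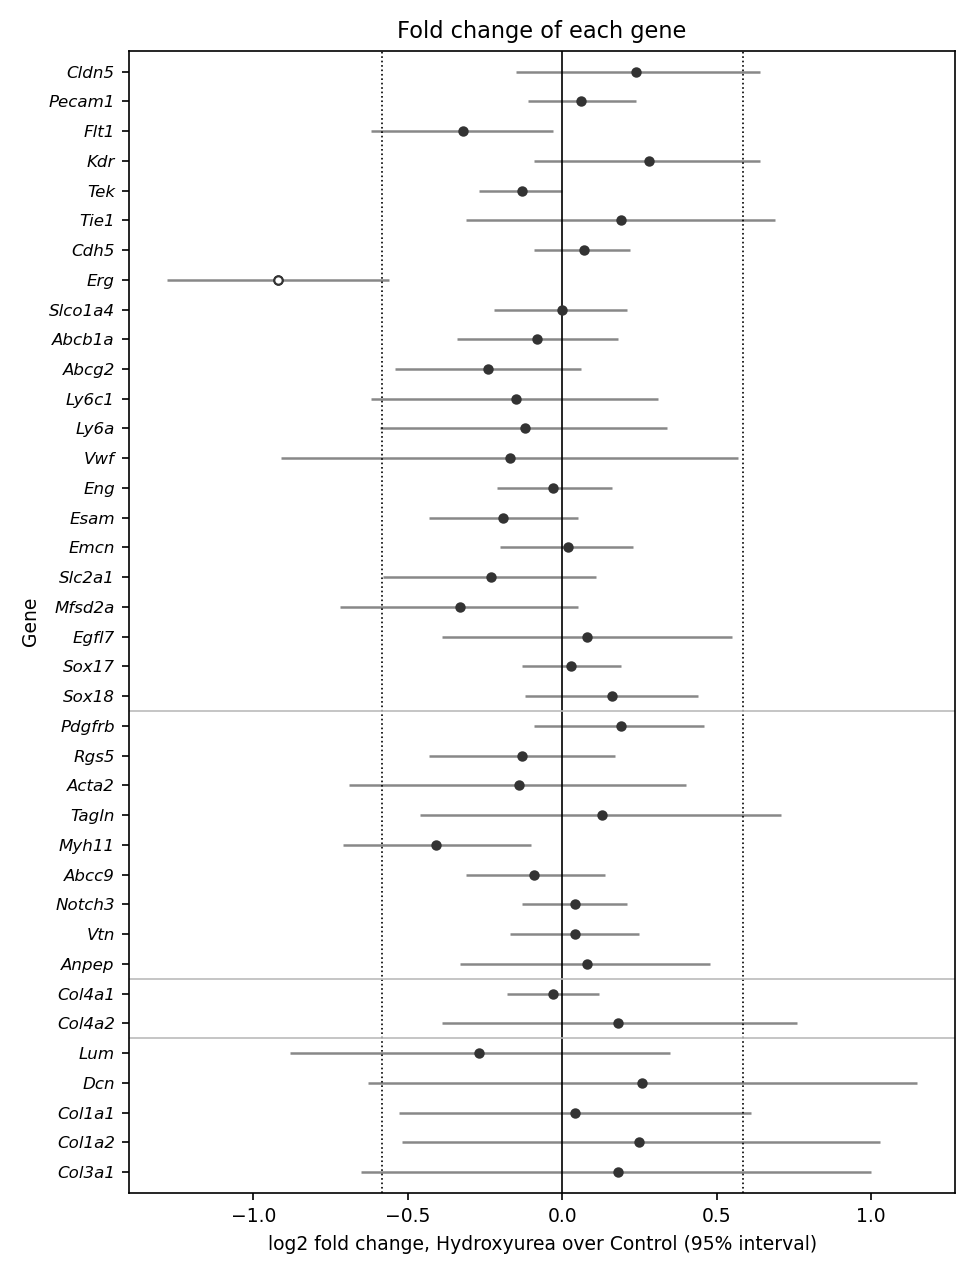
Log2 fold change of each of the 38 genes, Hydroxyurea over Control, on the x axis, with 95% intervals of the limma fit; genes run from endothelium at the top through mural cells and collagen IV to fibroblasts, and dotted lines mark a 1.5-fold difference. The intervals of Flt1 and Myh11 lie below 0, and the intervals are widest for the fibroblast genes Dcn, Col3a1 and Col1a2. The open circle marks Erg, whose probe was not well above background on any treated array and whose value is not a measured difference.

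The growth factor receptors Flt1 and Kdr were examined first, because the endothelial response to vascular endothelial growth factor A passes through them. Flt1 (vascular endothelial growth factor receptor 1), which holds the factor and signals weakly, had scaled log2 signals of 2.26, 2.25, 2.15 and 2.07 in Hydroxyurea 1 to 4, and of 2.28, 2.36, 2.87 and 2.50 in Control 1 to 4. Every treated value lay below every untreated one, narrowly between Hydroxyurea 1 and Control 1, and Control 3 stood highest. The log2 fold change was -0.32 ± 0.13 (SE, n = 4 per group; unadjusted p = 0.0358, limma adjusted p = 0.494), and it was -0.20 without Control 3. Kdr (receptor 2), the main signalling receptor of that factor, had 1.45, 2.01, 1.69 and 1.39 in Hydroxyurea 1 to 4 and 1.42, 1.55, 1.08 and 1.39 in Control 1 to 4. The groups overlapped, and the lowest value of Kdr was that of Control 3, the mouse in which Flt1 was highest. Its log2 fold change was 0.28 ± 0.16 (limma adjusted p = 0.572) and 0.15 without Hydroxyurea 2, and a second Kdr probe gave 0.02 ± 0.11.

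Their ligand Vegfa had 1.95, 1.95, 2.05 and 2.10 in Hydroxyurea 1 to 4, against 1.80, 1.61, 1.75 and 1.72 in Control 1 to 4. The groups did not overlap for this probe, at a log2 fold change of 0.29 ± 0.07 (unadjusted p = 0.00237, limma adjusted p = 0.452). A second Vegfa probe gave 0.11 ± 0.19. Of the 15 genes in the list of vascular growth factors and their partners, 10 had positive and 5 negative fold changes, with a median of 0.13, and 0 passed the adjusted threshold. At an unadjusted p under 0.05, 3 were higher and 1, the Notch ligand Jag1, was lower, where the shares over all genes tested were 3.53% higher and 6.36% lower. Tgfb1, transforming growth factor beta 1, was among those higher, at 0.24 ± 0.08 (limma adjusted p = 0.476).

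The promoters of Flt1 and Kdr are shown because these receptors of 1 ligand took opposite extremes in the same mouse. Each sequence is the 250 bases before the gene start, 5′ to 3′ on the gene's strand, from RefSeq on build GRCm38.p6. Flt1 lies on the minus strand (chr5:147726012-147726261) and Kdr on the minus strand (chr5:75978456-75978705). Capitals mark the letters GGAA or TTCC, the core bound by ETS factors such as Erg, and TGACGTCA, the cyclic AMP response element.
Flt1: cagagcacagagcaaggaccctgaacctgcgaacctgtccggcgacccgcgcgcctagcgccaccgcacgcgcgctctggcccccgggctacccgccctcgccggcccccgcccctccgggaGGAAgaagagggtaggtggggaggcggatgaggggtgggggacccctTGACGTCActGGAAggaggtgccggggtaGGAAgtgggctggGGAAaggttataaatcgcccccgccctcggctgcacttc
Kdr: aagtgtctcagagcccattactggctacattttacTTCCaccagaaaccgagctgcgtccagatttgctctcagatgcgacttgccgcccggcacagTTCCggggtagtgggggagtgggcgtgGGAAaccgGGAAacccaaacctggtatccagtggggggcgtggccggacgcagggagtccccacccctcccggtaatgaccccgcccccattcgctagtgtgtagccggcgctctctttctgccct
The Flt1 window held GGAA 4 times counting both strands, and TGACGTCA 1 time. The Kdr window held GGAA or TTCC 4 times and no TGACGTCA. GGAA or TTCC occurred in 93.4% of the 32851 upstream windows of this length in the RefSeq table, and TGACGTCA in 1.55% of them. Promoters were matched for 25 of the 38 members, of which 22 held GGAA or TTCC and 2 held TGACGTCA. A match of letters describes the window and does not show that a factor binds there.

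**Figure D2:**
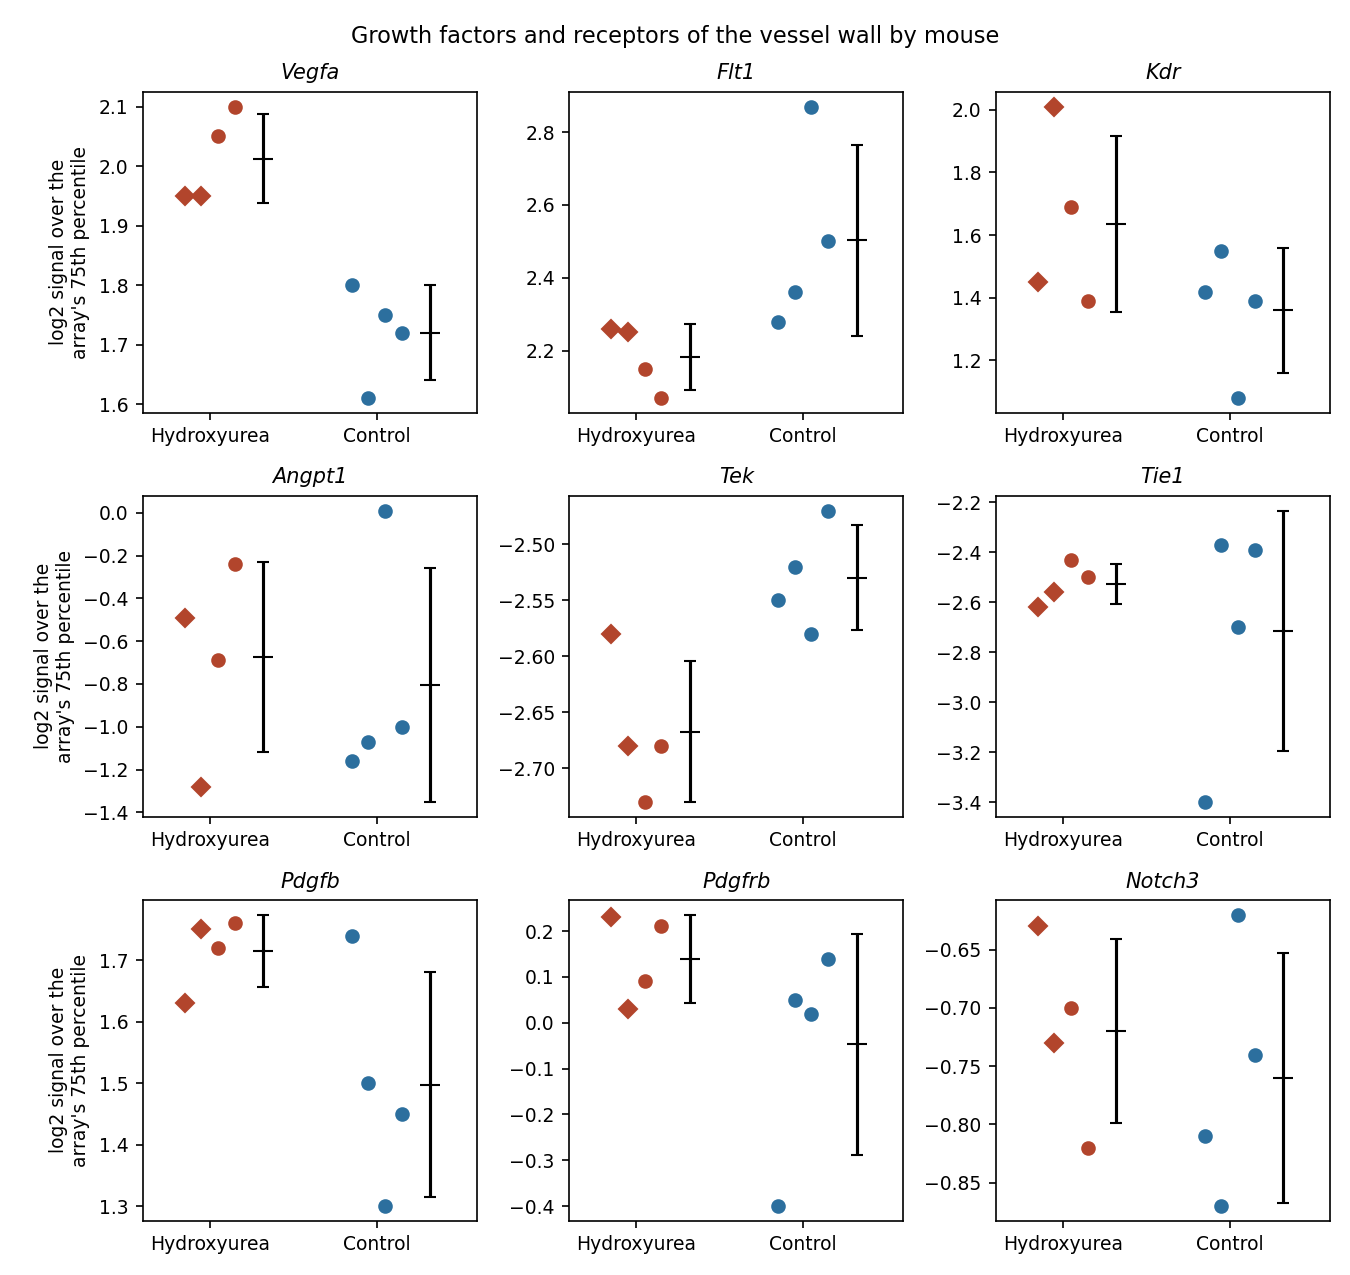
Scaled log2 signal (y axis) of growth factors and receptors in each Hydroxyurea and Control mouse (x axis); diamonds are 24-week mice, circles 19-week mice, and the bar beside each group is the mean ± SD (n = 4). The treated values of Vegfa (1.95 to 2.10) lie above the untreated ones (1.61 to 1.80), those of Flt1 lie below, and the groups overlap in the other 7 panels.

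The angiopoietin receptor system gave small differences. Tek, the receptor of angiopoietins and known as Tie2, had -2.58, -2.68, -2.73 and -2.68 in Hydroxyurea 1 to 4, against -2.55, -2.52, -2.58 and -2.47 in Control 1 to 4. The groups touched at -2.58, and the log2 fold change was -0.13 ± 0.06 (unadjusted p = 0.0511, limma adjusted p = 0.507). Its spread within groups was an SD of 0.06, the smallest among the 38 genes. Tie1, the partner of Tek with no well-defined ligand of its own, had -2.62 to -2.43 in treated mice and -3.40 in Control 1, with -2.70 to -2.37 in the other Control mice. Its fold change of 0.19 ± 0.22 was -0.04 without Control 1. The ligands Angpt1 (0.13 ± 0.31), which activates Tek, and Angpt2 (0.18 ± 0.31), which mostly opposes it, varied more than either receptor.

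Erg, an ETS transcription factor that maintains endothelial identity, was not well above background on any Hydroxyurea array. It had -6.34, -6.23, -5.90 and -6.64 in Hydroxyurea 1 to 4 and -5.15, -5.56, -5.35 and -5.37 in Control 1 to 4. All treated values were below every untreated value, and the filter on dim genes was passed through the Control arrays alone. The lowest scaled log2 signal well above background was -6.18 to -5.04 on Hydroxyurea arrays and -6.59 to -5.77 on Control arrays. With treated signals raised to these lowest signals, the treated mean was -5.47, which is 1.08-fold below the Control mean of -5.36. The lowest signals of Hydroxyurea 1 and 2, -5.23 and -5.04, lay above that Control mean, so a decrease of Erg is not established. The measured means were -6.28 in treated and -5.36 in untreated mice (limma adjusted p = 0.452). With normexp background correction its log2 fold change was -0.20, at an unadjusted p of 0.359. A second Erg probe was well above background on 0 of 8 arrays. Of the other endothelial transcription factors, Sox17, needed in arterial endothelium, had 0.03 ± 0.07, and Sox18, a factor of vessel and lymphatic development, had 0.16 ± 0.12. A second Sox17 probe gave -0.11 ± 0.09. Sox18 was lowest in Control 3, at -1.43, against -1.10 to -0.82 in treated and -1.15 to -0.88 in the other untreated mice, and its fold change was 0.06 without that mouse.

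The genes of endothelial junctions and surface were mostly even across the mice. Cdh5, the cadherin of adherens junctions, was between -1.55 and -1.38 in treated and between -1.60 and -1.43 in untreated mice, for a fold change of 0.07 ± 0.07. Pecam1, an adhesion molecule of endothelial contacts, had 0.06 ± 0.07, and Eng, the endoglin co-receptor of transforming growth factor beta, had -0.03 ± 0.08. Emcn, a sialomucin of capillary and venous endothelium, had 0.02 ± 0.09. The 95% interval of each of these 4 genes excluded a 1.5-fold difference. Esam, an adhesion molecule of tight junctions, had -0.19 ± 0.11 with its highest value in Control 3, and -0.12 without that mouse. Cldn5, the claudin that seals the barrier, had 2.41, 2.36, 2.12 and 2.09 in Hydroxyurea 1 to 4 and 1.5, 2.13, 2.11 and 2.27 in Control 1 to 4. Control 1 was low, and the fold change of 0.24 ± 0.17 (limma adjusted p = 0.644) was 0.08 ± 0.10 without that mouse. Egfl7, a secreted factor of endothelium, behaved alike: Control 1 had 2.95, with 3.58 to 3.79 in treated and 3.78 to 3.92 in the other untreated mice.

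The blood-brain barrier transporters among the members shared 1 feature, a high value in Control 3. Of 19 other junction and transporter genes, 5 were highest in Control 3 and 7 in Hydroxyurea 4. Over all genes tested, 17.7% were highest in Control 3 and 14.0% in Hydroxyurea 4. Slc2a1, the glucose transporter GLUT1, had 3.44, 3.23, 3.31 and 3.64 in Hydroxyurea 1 to 4, against 3.68, 3.44, 4.01 and 3.42 in Control 1 to 4. The groups overlapped, at a log2 fold change of -0.23 ± 0.15 (limma adjusted p = 0.615), which was -0.11 without Control 3. Mfsd2a, which carries omega-3 fatty acids as lysophosphatidylcholine and restrains vesicle traffic across the barrier, had 1.37, 1.39, 1.48 and 1.66 in Hydroxyurea 1 to 4 and 1.61, 1.69, 2.33 and 1.62 in Control 1 to 4. Hydroxyurea 1 to 3 lay below every Control mouse and Hydroxyurea 4 within their range. Its fold change of -0.33 ± 0.17 (unadjusted p = 0.0822, limma adjusted p = 0.548) was -0.16 without Control 3. The efflux pumps Abcb1a (P-glycoprotein) and Abcg2 had -0.08 ± 0.11 and -0.24 ± 0.13. Abcg2 stood at 2.18 in Control 3, against 1.47 to 1.74 in treated and 1.63 to 1.81 in the other untreated mice, and its fold change was -0.12 without Control 3. Slco1a4, an organic anion transporter, had 0.39 to 0.69 in treated mice and 0.51 to 0.77 in untreated mice, with group means of 0.58 each.

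Slc2a1 and Mfsd2a, like Flt1, had their highest value in Control 3. Their upstream windows are shown for comparison with those of the receptors. They come from the same RefSeq build, Slc2a1 on the plus strand (chr4:119108495-119108744) and Mfsd2a on the minus strand (chr4:122961189-122961438). Capitals mark GGAA or TTCC and, in addition, ACGTG or CACGT, 1 form of the core to which hypoxia-inducible factors bind. The form GCGTG, or CACGC on the other strand, was not marked or counted.
Slc2a1: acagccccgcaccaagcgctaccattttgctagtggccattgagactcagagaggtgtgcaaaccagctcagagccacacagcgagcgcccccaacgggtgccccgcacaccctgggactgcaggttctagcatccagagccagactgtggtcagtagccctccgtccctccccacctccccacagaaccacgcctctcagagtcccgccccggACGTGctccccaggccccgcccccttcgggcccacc
Mfsd2a: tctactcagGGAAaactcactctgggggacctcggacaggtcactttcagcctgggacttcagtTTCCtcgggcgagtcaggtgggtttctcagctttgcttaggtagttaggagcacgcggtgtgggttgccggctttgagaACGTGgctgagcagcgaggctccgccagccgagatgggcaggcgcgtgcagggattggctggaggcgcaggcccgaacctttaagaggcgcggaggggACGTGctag
The Slc2a1 window held ACGTG 1 time and neither GGAA nor TTCC. The Mfsd2a window held ACGTG 2 times, GGAA 1 time and TTCC 1 time, and no marked letters overlap between the motifs. ACGTG or CACGT occurred in 16.6% of the 32851 windows and in 4 of the 25 matched members. The Flt1 and Kdr windows had no ACGTG or CACGT, which says only that these letters are not in those 250 bases.

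The remaining endothelial members were among the more variable of their group. Vwf, von Willebrand factor of larger vessels, had 0.95, 1.52, 1.21 and 1.82 in Hydroxyurea 1 to 4 and 0.91, 1.79, 2.30 and 1.17 in Control 1 to 4, with a fold change of -0.17 ± 0.32. The surface antigens Ly6c1 and Ly6a, which mark brain endothelium and are known to respond to interferon, had -0.15 ± 0.20 and -0.12 ± 0.20. Both were lowest in Hydroxyurea 1 (3.15 for Ly6c1 and 0.66 for Ly6a) and highest in Control 3 (4.21 and 1.68). A second Ly6c1 probe gave a fold change of -0.22 ± 0.20. The score of 14 interferon-induced genes, the mean deviation of a mouse from each gene's mean over 8 mice, was 0.21, -0.18, -0.33 and 0.33 in Hydroxyurea 1 to 4 and -0.26, 0.02, 0.29 and -0.08 in Control 1 to 4. It was 0.21 in Hydroxyurea 1, where Ly6a and Ly6c1 were lowest, and 0.29 in Control 3, where both were highest, and its part in their values was not tested.

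Many of the 38 genes had their extreme value in the same mouse. Control 3 had the highest value of all 8 mice for 17 members, against 17.7% of all genes tested, and these included 11 of 22 endothelial genes. Control 1 had the lowest value for 15 members, against 21% of all genes tested. The mean deviation of the 22 endothelial genes was -0.10, 0.01, -0.06 and -0.01 in Hydroxyurea 1 to 4 and -0.13, 0.06, 0.20 and 0.04 in Control 1 to 4. The treated mice thus lay within the range of the untreated ones. The median fold change of the 22 endothelial genes, -0.05, was -0.03 among those well above background on all arrays, which leaves out Erg. The median of the 22 genes was 0.02 without Control 3 and -0.14 without Control 1. A list of 14 glucocorticoid-induced genes, put together after these values were seen, had deviations of -0.25, -0.22, -0.06 and 0.14 in Hydroxyurea 1 to 4 and -0.11, 0.10, 0.55 and -0.14 in Control 1 to 4. Of these genes, 12 were highest in Control 3, and the part of this in the endothelial values was not tested.

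**Figure D3:**
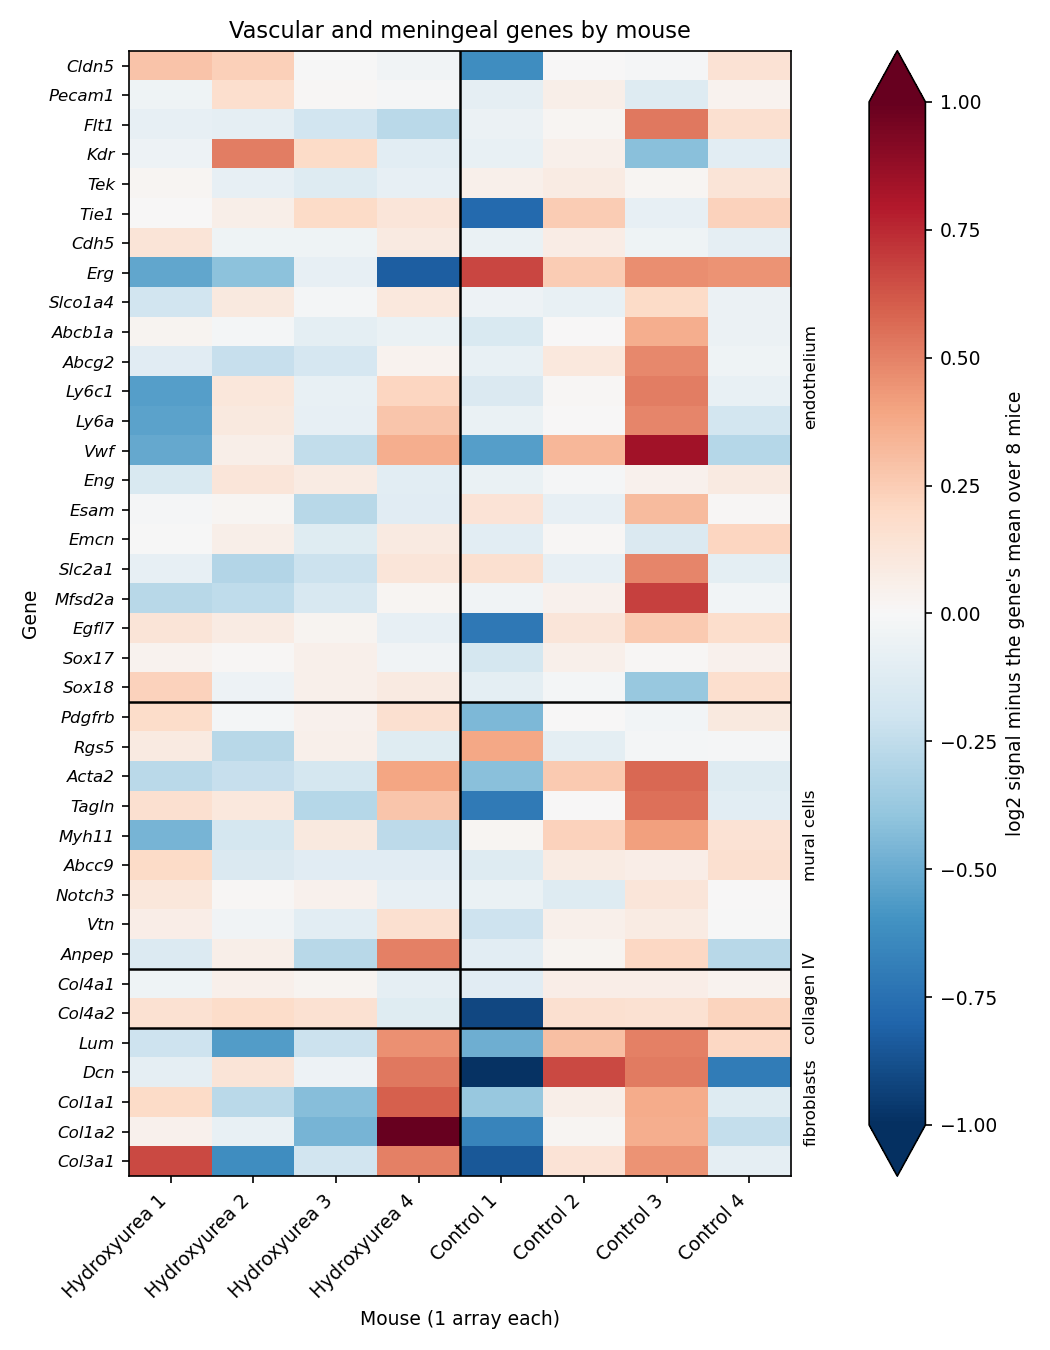
Deviation of each gene (y axis) from its own mean over 8 mice, in log2 units by colour, for each mouse (x axis), with Hydroxyurea mice left of the vertical line and Control mice right of it. Control 3 is red across the barrier transporters and the fibroblast genes, Control 1 holds the lowest value of 15 genes, and Hydroxyurea 4 is red in the fibroblast block.

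Of the 9 mural genes, 0 passed the adjusted threshold, 5 had positive and 4 negative fold changes, and their median log2 fold change was 0.04, which was -0.04 with median centring. Pdgfrb, the receptor by which pericytes sense platelet-derived growth factor B, had 0.23, 0.03, 0.09 and 0.21 in Hydroxyurea 1 to 4 and -0.40, 0.05, 0.02 and 0.14 in Control 1 to 4. Only Control 1 stood apart, and the fold change was 0.19 ± 0.12 (limma adjusted p = 0.624), and 0.07 without that mouse. Its ligand Pdgfb had 1.63, 1.75, 1.72 and 1.76 in Hydroxyurea 1 to 4 and 1.74, 1.5, 1.30 and 1.45 in Control 1 to 4. Here Control 1 lay among the treated mice, at a fold change of 0.22 ± 0.10 (limma adjusted p = 0.512), and a second Pdgfb probe gave -0.01 ± 0.10. Notch3, the Notch receptor of arterial smooth muscle and pericytes, had 0.04 ± 0.07, and its interval excluded a 1.5-fold difference. Jag1, a Notch ligand of endothelium, had -0.22 ± 0.08 (limma adjusted p = 0.484).

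Among pericyte genes, Rgs5, a regulator of G protein signalling, had -0.13 ± 0.13 and was highest in Control 1, at 1.32, against 0.65 to 1.02 in treated mice. Without Control 1 its fold change was -0.02. Abcc9, a subunit of potassium channels that sense metabolic state, had -0.09 ± 0.10, with -1.55 in Hydroxyurea 1 and -1.88 to -1.85 in the other treated mice, and its fold change was -0.16 without Hydroxyurea 1. Vtn, vitronectin, which pericytes secrete in brain, had 0.04 ± 0.09, and Anpep, an aminopeptidase of pericytes and meninges, had 0.08 ± 0.18. Of the 19 other mural genes tested, 8 had positive and 11 negative fold changes, with a median of -0.06, and 0 passed the adjusted threshold. At an unadjusted p under 0.05, 0 were higher and 1 was lower, where all genes tested gave 3.53% higher and 6.36% lower. The lower gene was Foxf2, a transcription factor of brain pericytes, at -0.35 ± 0.11 (limma adjusted p = 0.472). Cspg4, the NG2 proteoglycan shared by pericytes and oligodendrocyte precursors, had 0.07 ± 0.11, and -0.01 with median centring.

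Acta2, Tagln and Myh11 are contractile genes of arterial smooth muscle, and none passed the adjusted threshold. Acta2, smooth muscle actin, had -0.81, -0.77, -0.72 and -0.15 in Hydroxyurea 1 to 4 and -0.96, -0.28, 0.03 and -0.67 in Control 1 to 4. Tagln, the actin-binding transgelin, had 1.06, 1.0, 0.61 and 1.17 in Hydroxyurea 1 to 4 and 0.19, 0.90, 1.45 and 0.79 in Control 1 to 4. Both were lowest in Control 1 and highest in Control 3, and their fold changes were -0.14 ± 0.24 and 0.13 ± 0.25. Myh11, smooth muscle myosin heavy chain, had -5.28, -4.99, -4.71 and -5.07 in Hydroxyurea 1 to 4 and -4.79, -4.58, -4.40 and -4.67 in Control 1 to 4. The groups overlapped through Hydroxyurea 3 alone, at a fold change of -0.41 ± 0.13 (unadjusted p = 0.0154, limma adjusted p = 0.476). Its probe was dim, and with normexp background correction the fold change was -0.14 at an unadjusted p of 0.406.

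The chains of collagen IV form the sheet of the basement membrane, and neither gene passed the adjusted threshold. Col4a1 was between -0.29 and -0.15 in treated and between -0.31 and -0.13 in untreated mice, with a fold change of -0.03 ± 0.07. Col4a2 had 0.05, 0.08, 0.05 and -0.22 in Hydroxyurea 1 to 4 and -1.01, 0.06, 0.05 and 0.12 in Control 1 to 4. Its fold change of 0.18 ± 0.25 was -0.09 ± 0.08 without Control 1. The median of both chains was 0.08, and -0.01 with median centring. Among 15 other basement membrane genes, 10 had positive and 5 negative fold changes, with a median of 0.05, and 0 passed the adjusted threshold. The genes at an unadjusted p under 0.05 were both lower: Agrn (agrin), at -0.25 ± 0.09, and Lamb1 (laminin beta 1), at -0.20 ± 0.08. Over all genes tested, 6.36% were lower at that threshold. Agrn had 4.48, 4.46, 4.39 and 4.17 in Hydroxyurea 1 to 4 and 4.52, 4.61, 4.74 and 4.62 in Control 1 to 4, without overlap (limma adjusted p = 0.482).

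The 5 fibroblast genes varied most, with a median within-group SD of 0.54 on the log2 scale. Col1a2, a chain of collagen I, had 1.17, 1.05, 0.66 and 2.14 in Hydroxyurea 1 to 4 and 0.47, 1.15, 1.49 and 0.89 in Control 1 to 4, with a fold change of 0.25 ± 0.33. Col1a1, the other chain, had -0.23, -0.69, -0.84 and 0.18 in Hydroxyurea 1 to 4 and -0.80, -0.36, -0.05 and -0.55 in Control 1 to 4, with a fold change of 0.04 ± 0.25. Hydroxyurea 4 was highest for both, and the groups overlapped throughout. Col3a1, collagen III, had -1.78, -3.06, -2.63 and -1.94 in Hydroxyurea 1 to 4 and -3.29, -2.30, -1.99 and -2.53 in Control 1 to 4. Dcn (decorin), a small proteoglycan that binds collagen fibrils, had 3.93, 4.15, 3.97 and 4.55 in Hydroxyurea 1 to 4 and 3.03, 4.68, 4.54 and 3.32 in Control 1 to 4. Lum (lumican), a relative of decorin, had -0.47, -0.82, -0.48 and 0.19 in Hydroxyurea 1 to 4 and -0.75, 0.04, 0.24 and -0.06 in Control 1 to 4. Col3a1, Dcn and Lum gave fold changes of 0.18 ± 0.36, 0.26 ± 0.39 and -0.27 ± 0.26, and that of Lum was -0.47 without Control 1. The median of the 5 genes, 0.18, turned to -0.07 when Control 1 was left out, to -0.01 when Hydroxyurea 1 was left out and to -0.04 when Hydroxyurea 4 was left out. For 0 of the 5 did the 95% interval exclude a 1.5-fold difference.

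The fibroblast genes had their highest and lowest mean deviation in the same mice, Hydroxyurea 4 and Control 1, as genes of other tissues at the edge of the hippocampus. The list of 15 other basement membrane genes had its extremes in these mice too, at 0.32 and -0.39. Control 1 was also lowest for the endothelial (-0.13) and mural (-0.18) members. The mean deviation of the fibroblast genes was 0.12, -0.28, -0.27 and 0.62 in Hydroxyurea 1 to 4 and -0.67, 0.24, 0.44 and -0.19 in Control 1 to 4. The 25 other fibroblast and meningeal genes tested had -0.06, -0.05, -0.29 and 0.53 in Hydroxyurea 1 to 4 and -0.34, 0.08, 0.34 and -0.21 in Control 1 to 4. Of these 25, 20 were highest in Control 3 or Hydroxyurea 4, against 5256 of all 16618 genes tested. Markers of perivascular and meningeal macrophages, with 9 of 10 genes tested, had -0.35 to 0.54 in treated and -0.49 to 0.49 in untreated mice, and were likewise highest in Hydroxyurea 4 and Control 3. Choroid plexus epithelium, with 18 of 18 genes tested, had -1.08, 0.82, 0.11 and 2.67 in Hydroxyurea 1 to 4 and -2.03, -0.98, 0.82 and -0.33 in Control 1 to 4. In Hydroxyurea 1 to 3 and in Control 2 its sign was opposite to that of the fibroblast genes. All 18 were highest in Hydroxyurea 4 and 17 were lowest in Control 1, against 14.0% and 21.0% of all genes tested. Its defining markers Ttr (transthyretin) and Otx2 were well above background on all 8 arrays, and Ttr had 3.76, 7.23, 6.19 and 7.34 in Hydroxyurea 1 to 4 and 2.56, 4.66, 6.51 and 5.60 in Control 1 to 4. Ependymal markers, with 10 of 10 genes tested, spanned -0.50 to 1.51 in treated and -1.60 to 0.66 in untreated mice, with the same highest and lowest mouse. The part of these tissues in the fibroblast values was not tested. Igf2 and Igfbp2, which meninges and choroid plexus share, had the largest fold changes of the meningeal list, at 0.65 ± 0.37 and 0.67 ± 0.38 (limma adjusted p = 0.579 and 0.571). Without Hydroxyurea 4 each was 0.28.

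**Figure D4:**
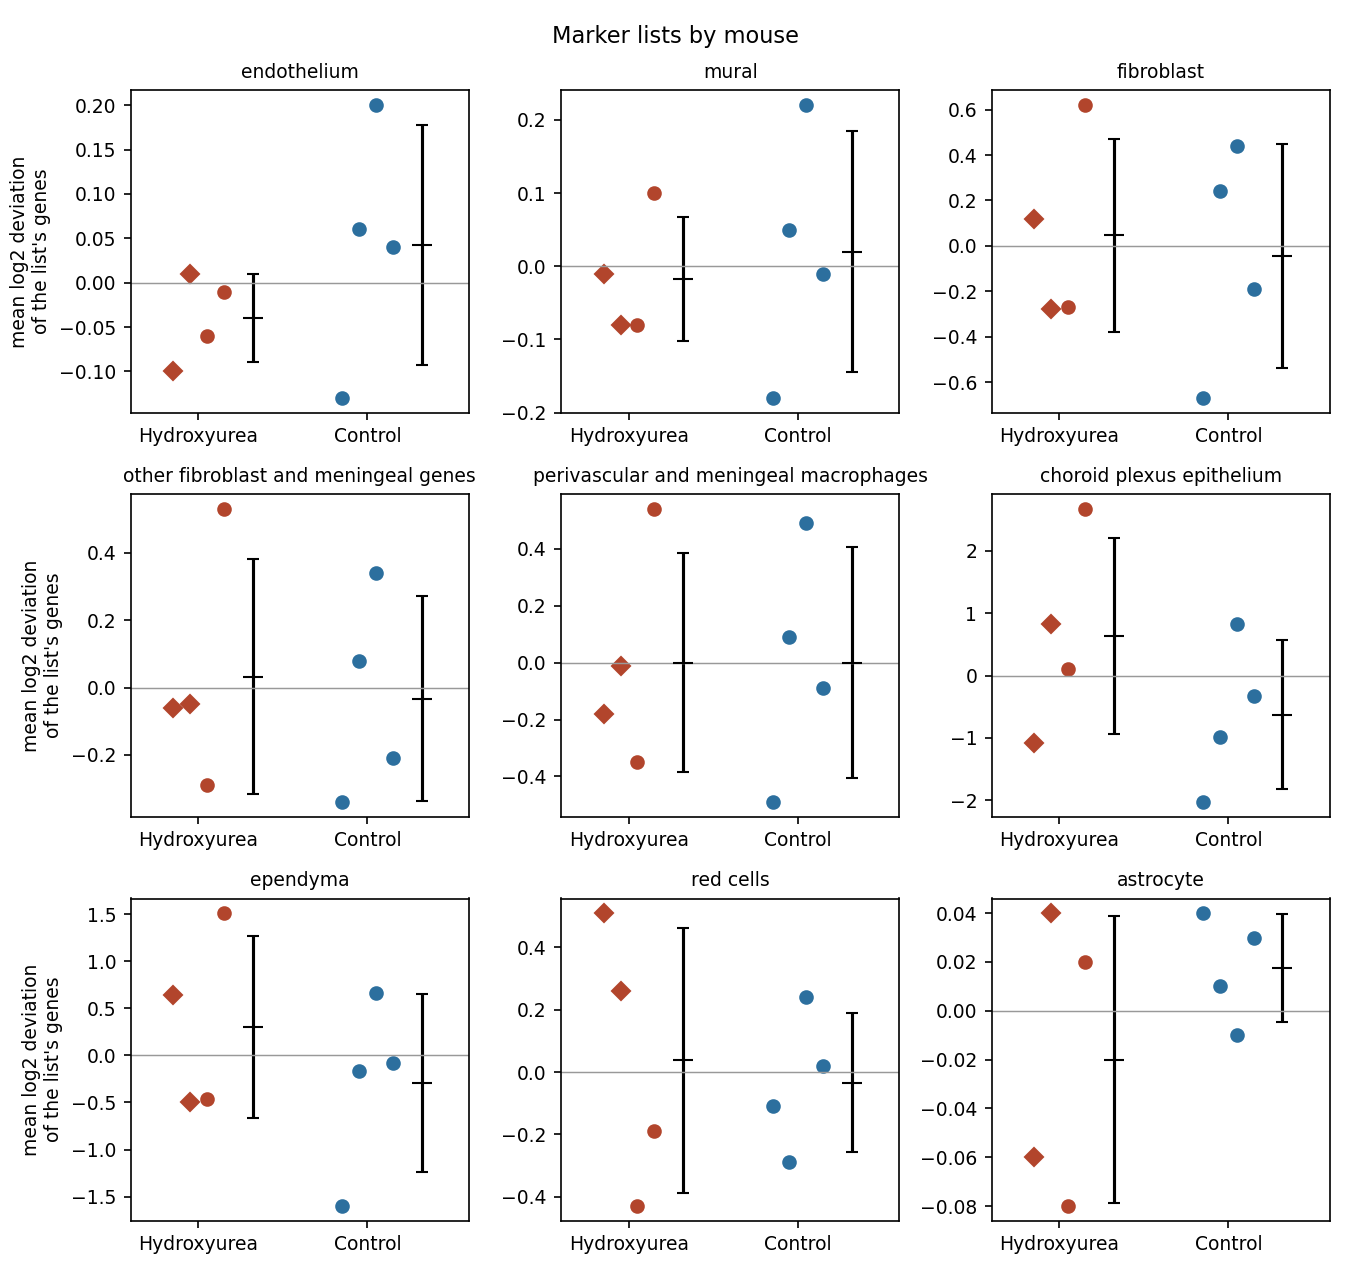
Mean log2 deviation of the genes of 9 lists (y axis) in each Hydroxyurea and Control mouse (x axis); diamonds are 24-week mice, circles 19-week mice, and bars are mean ± SD (n = 4). Hydroxyurea 4 is highest and Control 1 lowest in the fibroblast, meningeal, macrophage, choroid plexus and ependyma panels, and the y axes differ between panels.

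The signals that build and keep the barrier were read from lists of related genes. Of 17 genes of Notch and Wnt signalling in brain vessels, 9 had positive and 8 negative fold changes, with a median of 0.02, and at an unadjusted p under 0.05 there was 1 in each direction, Lrp5 and Notch1. Lrp5, a Wnt and norrin co-receptor, had 0.56, 0.89, 0.63 and 0.54 in Hydroxyurea 1 to 4 and 0.34, 0.54, 0.24 and 0.46 in Control 1 to 4, with a fold change of 0.26 ± 0.10 (unadjusted p = 0.0348). Notch1 had -0.44 ± 0.19 and Tspan12, which aids norrin signalling, had -0.22 ± 0.10. Of 19 junction and transporter genes, 11 were positive and 8 negative, with a median of 0.08, and 2 were higher and 2 lower at an unadjusted p under 0.05. Beside both of these lists, the shares over all genes tested were 3.53% higher and 6.36% lower. Slc38a3, a glutamine transporter, had 0.34 ± 0.12, Slc3a2, the partner chain of large amino acid transporters, had 0.20 ± 0.08, and Tjp1, the junction scaffold ZO-1, had -0.22 ± 0.09. Of 25 other endothelial genes tested, 9 were positive and 16 negative, with a median of -0.07. Klf4, a factor induced in endothelium by blood flow, had -0.02, 0.07, -0.29 and -0.47 in Hydroxyurea 1 to 4 and 0.16, 0.09, 0.28 and 0.07 in Control 1 to 4, with a fold change of -0.33 ± 0.12 (unadjusted p = 0.0292). Plvap, which marks fenestrated endothelium that lacks a barrier, had 0.12 ± 0.14. The 95% interval excluded a 1.5-fold difference for 20 of these 25 genes (80%), compared with 77.7% of all genes tested. No gene of these lists passed the adjusted threshold, and the smallest limma adjusted p among them was 0.484.

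The 24-week and 19-week treated mice were compared in a fit that also held the Control mice. Of the 38 members, 0 differed at an unadjusted p under 0.05, where the shares over all genes tested were 1.26% higher and 1.44% lower in the older mice. The median log2 difference, older minus younger, was -0.01, with 18 positive and 20 negative values. All 5 fibroblast genes had negative differences, and Lum had the largest at -0.50 ± 0.35, with means of -0.65 in 24-week and -0.15 in 19-week mice. Leaving out each array in turn gave -0.83 to -0.16 for Lum and -0.64 to -0.07 for Acta2, which had -0.35 ± 0.33. Esam had 0.20 ± 0.14 and Cldn5 0.28 ± 0.24. The choroid plexus list had a median difference of -1.5, negative in 18 of 18 genes, beside those of the fibroblasts. Beyond the members, Klf4 had 0.41 ± 0.11 (unadjusted p = 0.00722). The red cell gene Hbb-b1, beta globin, had means of 3.03 in 24-week and 1.95 in 19-week mice, a difference of 1.08 ± 0.19 (unadjusted p = 0.000665, limma adjusted p = 0.84), and of 7 red cell genes tested 6 had positive differences. No gene passed the adjusted threshold in this comparison, and with 2 mice of each age and no 24-week Control mouse, a difference by age and a difference in the response to treatment cannot be told apart.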

How the data were processed

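The 38 genes and the other gene lists were chosen with earlier results of these data known. Feature Extraction 12.0.3.1 read the scans, per the file headers, and subtracted background to give a processed signal intensity per spot. The same deposited files hold a median spot signal intensity and flags. In the authors' deposited value table each array is a z score of its log signal over 62976 features. Recomputing it gave values within 0.005, and column medians were -0.21 to -0.17. Its scale is not log2, so it served for directions and counts. Per the labels' protocols, 200 ng of RNA was labelled with Cy3.

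Of 55681 non-control probes, 28331 were named through RefSeq accessions of GRCm38.p6 (21368 genes). The headers name build mm9 (NCBI37), so no gene coordinates are given, and promoter coordinates are those of the RefSeq table. Log2 of the processed signal minus the array's 75th percentile was used, without outlier spots and with spots of a probe averaged. The probe with the highest mean stood for each of 5754 genes with several. Testing required a probe well above background on 4 or more of the 8 arrays and a value on 6 or more. No spot was saturated, and 4 arrays per group limit the precision. The two-sided group test was limma 3.58.1 (lmFit, eBayes; R 4.3.3), and p-values were adjusted over all genes tested by Benjamini-Hochberg; ages were compared in a fit of 3 group means. Intervals are 95% intervals of these fits. The fit was tested on simulated data. The bound for Erg replaces a treated signal by the array's lowest one that is well above background, where that is higher. All 38 members are named, as are, from the lists of vessel genes, up to 3 genes each by smallest p and a fixed few more; the rest appear in counts. Alternatives changed the background correction (normexp, offset 50, on the median signal), scaling, filters, probe rule, array weights, age, the replicate number as a block, and single arrays.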

Additional observations from a re-analysis of the deposited data

Results flagged for a closer look

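Among the 76 sets of 4 values examined (38 genes in 2 groups), 8 held a mouse far from the other 3 by Dixon's test at the 95% level, where chance flags about 1 in 20, or 3.8. In the Hydroxyurea group these were Acta2 in Hydroxyurea 4 (-0.15, the others -0.81 to -0.72), Abcc9 in Hydroxyurea 1 (-1.55, the others -1.88 to -1.85) and Col4a2 in Hydroxyurea 4 (-0.22, the others 0.05 to 0.08). In the Control group, Control 3 stood high for the transporters Slco1a4 (0.77, the others 0.51 to 0.53) and Mfsd2a (2.33, the others 1.61 to 1.69). Control 1 stood low for Egfl7 (2.95, the others 3.78 to 3.92), Col4a1 (-0.31, the others -0.16 to -0.13) and Col4a2 (-1.01, the others 0.05 to 0.12). Of the 8, 3 were in Control 1, the array with the lowest weight.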

How the results depend on the processing

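The count of 0 genes and 0 members past the adjusted threshold between treated and untreated mice was the same under all 20 alternatives run, and 0 members were higher at an unadjusted p under 0.05 under any of them. The 3 members lower at an unadjusted p under 0.05, a count that here includes Erg, became 1 with normexp (Abcg2), 1 with genes well above background on all arrays (Flt1) and 1 with 19-week mice only (Erg), and 2 to 4 when each array was left out in turn. The replicate numbers did not pair the mice: deviations of same-numbered mice correlated at 0.05, 0.20, -0.21 and -0.06, and the replicate block left 2 such members (Erg and Myh11). Over all genes at an unadjusted p under 0.05, 586 higher and 1057 lower became 197 and 1935 with median centring, which moved the median of all genes to -0.09, 1228 and 2024 with array weights, 1508 and 975 with no filter, 875 and 1647 without Control 1, 485 and 625 without Control 4, 492 and 679 with age as a covariate, 459 and 644 with 19-week mice only, 917 and 1096 with the value table, and 905 and 1422 without Control 1 and Hydroxyurea 2 together. The lower share, 64.3% at first, was 90.8% with median centring and 39.3% with no filter. Between ages, genes past the threshold numbered 0 to 7 when each array was left out (1 without Hydroxyurea 3, 7 without Hydroxyurea 4), and members at an unadjusted p under 0.05 numbered 0 to 2, with Anpep and Col1a2 lower without Hydroxyurea 3 and Cldn5 higher without Control 1. The cause of these shifts was not tested. A block by slide or scan was not run, since there was 1 slide and 1 scan.

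Of the 38 members, 15 kept the sign of their fold change in every alternative run, among them Flt1, Kdr, Tek, Slc2a1, Mfsd2a, Pdgfrb and Myh11. Erg is counted in the 15, but it passed the filter through the Control arrays alone, so its sign is not a measured result. Erg and Myh11 were absent from the alternative that required genes well above background on all arrays. The sign of small fold changes turned elsewhere. With median centring, values were -0.02 for Pecam1 and Cdh5, -0.07 for Emcn, -0.00348 for Egfl7, -0.06 for Sox17, -0.04 for Notch3, Vtn and Col1a1, and -0.01 for Anpep and Cspg4. With array weights they were -0.01 for Pecam1, Sox17 and Tagln, -0.05 for Tie1, 0.01 for Slco1a4, -0.10 for Emcn, -0.07 for Egfl7 and Col1a1, 0.02 for Rgs5, and -0.03 for Vtn and Col4a2. Without Control 1 and Hydroxyurea 2 together they were -0.01 for Pecam1, -0.03 for Tie1, Emcn, Sox17 and Dcn, -0.16 for Egfl7, 0.05 for Rgs5, -0.10 for Tagln, -0.00201 for Vtn and -0.12 for Col4a2. With the value table, in z units, they were -0.01 for Pecam1 and Sox17, -0.02 for Emcn, and -0.0025 for Cdh5, Notch3 and Col1a1. Age as a covariate and 19-week mice only both gave 0.05 for Slco1a4, 0.03 for Ly6a and Acta2, -0.00291 for Emcn, -0.00196 for Notch3 and -0.37 for Hbb-b1. Slco1a4 was 0.08 with normexp, Emcn -0.03 with quantile scaling and Sox17 -0.04 with the mean of all probes. Leaving out each array gave -0.04 to 0.30 for Tie1, -0.04 to 0.06 for Slco1a4, -0.14 to 0.03 for Abcb1a, -0.25 to 0.01 for Ly6c1, -0.24 to 0.03 for Ly6a, -0.38 to 0.09 for Vwf, -0.07 to 0.02 for Eng, -0.03 to 0.09 for Emcn, -0.14 to 0.18 for Egfl7 and -0.03 to 0.05 for Sox17. It gave -0.31 to 0.02 for Acta2, -0.09 to 0.33 for Tagln, -0.02 to 0.08 for Vtn, -0.08 to 0.18 for Anpep, -0.09 to 0.29 for Col4a2, -0.03 to 0.52 for Dcn, -0.15 to 0.19 for Col1a1, -0.04 to 0.45 for Col1a2, -0.08 to 0.41 for Col3a1, -0.02 to 0.40 for Angpt1, -0.05 to 0.36 for Angpt2 and -0.08 to 0.37 for Hbb-b1. Signal over background limits Erg and Myh11, the dimmest members.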
